A study of Raphidocelis subcapitata with 45 samples.

Results

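Among 7291 genes measured in the green alga Raphidocelis subcapitata, 63 kept their mean level within 0.4 log2 units of the solvent control at 784, 1960, 4900 and 12249 µg/L of sertraline and lay at least 1 log2 unit below it at 30623 µg/L, the highest concentration tested. The members were chosen by exactly these group means, so their course at those 5 concentrations is a description and not a finding. The libraries at 50, 125 and 314 µg/L did not enter the choice. The scatter of single libraries about the means from 784 µg/L up, and the control means, which enter every difference, are not independent of it and are described without a test.

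R. subcapitata is a unicellular freshwater alga widely used in toxicity testing. Whole cells of 1 source, labelled Carolina Biological, in exponential growth under constant light were exposed for 24 h to the solvent control or to sertraline hydrochloride at 50, 125, 314, 784, 1960, 4900, 12249 or 30623 µg/L (nominal). Reads came from transcript 3′ ends, and the deposited values, normalised by the authors and read here as log2, were available for 41 libraries: 5 in each group up to 4900 µg/L, replicates A to C at 12249 and replicates A, C and D at 30623 µg/L. Homogenates from several plates were pooled for RNA extraction, and separate cultures are not named in the labels; p-values therefore cover only library-to-library spread, which may be technical.

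Sertraline is an antidepressant that blocks serotonin reuptake in animals. It is a cationic amphiphilic compound, with a basic amine and a lipophilic ring system, and compounds of this class partition into membranes and accumulate in acidic compartments of cells. The title of the study names a burst of reactive oxygen species, which in a green alga arise mainly in photosynthetic and respiratory electron transport. The files give genes by identifier without names and no annotation was used here, so that no gene can be assigned to these processes; the 2 members with the strongest mean falls are given by identifier and the other 61 by their values. In such a normalised table a level is a share of the RNA sequenced, so less of a transcript and more of the others cannot be told apart. The values give neither the amount of RNA per cell nor the number of living cells.

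At 30623 µg/L the 63 genes had a median difference from the control of -1.15 log2 units (quartiles -1.27 and -1.08), which is 45.0% of the control level if the base is 2. The strongest mean fall was -1.65. At 12249 µg/L, the next lower concentration, the median was -0.18 (quartiles -0.30 and -0.07), and at 4900 µg/L it was -0.01. The median over all 7291 genes was -0.01 at 30623 µg/L, -0.05 at 12249 µg/L and -0.02 at 4900 µg/L.

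**Figure D1:**
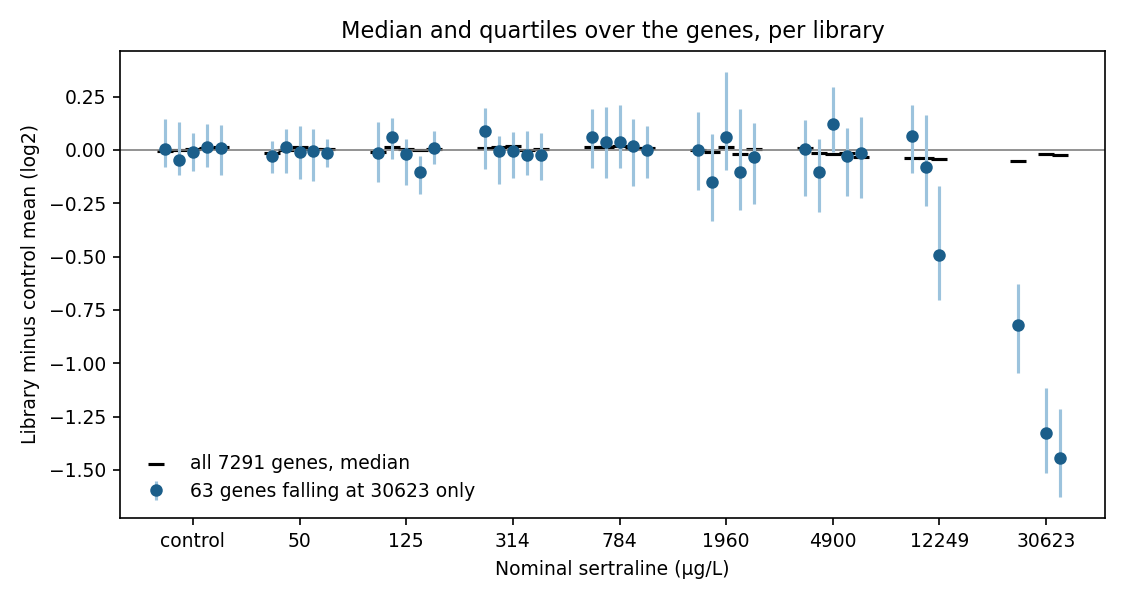
Each point is the median over the 63 genes of a library's value minus the control mean (log2, vertical axis), bars span the quartiles over genes, and black dashes give the median over all 7291 genes, by nominal sertraline concentration on the horizontal axis. Libraries up to 4900 µg/L lie between -0.15 and 0.12, replicate C at 12249 µg/L lies at -0.49, and the 30623 µg/L libraries lie at -0.82, -1.33 and -1.44.

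Of 936 genes with a mean at least 1 log2 unit below the control at 30623 µg/L, the 63 make up 6.73%. Most of the others were already lower at a smaller concentration, with 829 of the 936 at or below -0.4 at 12249 µg/L. The 4900 µg/L mean had already reached -0.4 in 595 of them, the 1960 µg/L mean in 415 and the 784 µg/L mean in 110. In 168 of the 936 only the 12249 µg/L mean lay outside the bound, and on the lower side. Seen from the other end, 1724 genes kept within 0.4 of the control from 784 to 12249 µg/L, and at 30623 µg/L 3.65% of these had means at least 1 log2 unit lower than the control while 95, or 5.51%, had means at least 1 higher.

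The thresholds cut through a continuous distribution. The 3 members nearest to the fall of 1 stood at -1.0004, -1.0040 and -1.0044 and the 3 genes just outside it at -0.9985, -0.9917 and -0.9904. With 39 members between -1.2 and -1, 68 further genes within the bound lay between -1 and -0.8. At the bound of 0.4 the members nearest to it stood at -0.39 (12249 µg/L), -0.38 and 0.38 (both 4900 µg/L), and the genes just outside at -0.40 (1960 µg/L), -0.40 (12249 µg/L) and -0.40 (1960 µg/L).

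Rsub_06032 had the strongest mean fall. Its control libraries had normalised values of 6.17, 5.77, 5.95, 6.13 and 5.75 log2 units in replicates A to E. At 12249 µg/L replicates A, B and C had 5.27, 5.70 and 5.95, and at 30623 µg/L replicates A, C and D had 4.74, 4.16 and 4.01. All 3 libraries at 30623 µg/L lay below every other library of this gene, of which the lowest was replicate C at 4900 µg/L with 5.26. The group mean was 5.95 ± 0.20 (SD, n = 5) in the control, and the means at 50 to 1960 µg/L lay between 5.78 and 5.91. It was 5.65 ± 0.26 (SD, n = 5) in the 4900 µg/L group and 5.64 ± 0.35 (SD, n = 3) in the 12249 µg/L group. The 30623 µg/L group then had 4.30 ± 0.39 (SD, n = 3). The difference from the control was -0.30 ± 0.16 (SE) at 4900 µg/L and -0.31 ± 0.18 (SE) at 12249 µg/L, neither past the threshold of limma's moderated test after Benjamini-Hochberg adjustment over all genes (adjusted p = 0.136 and 0.151). The rule held both differences within 0.4, so these p-values describe the choice and do not show an unchanged level. The highest concentration gave -1.65 ± 0.18 (SE), 31.9% of the control level if the base is 2. These SEs come from a spread shared by all groups. The SDs of this gene were 0.20 in the control and 0.39 at 30623 µg/L.

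Rsub_08229 followed another course on the way to its fall. Its control libraries had 7.40, 7.46, 7.73, 7.40 and 7.37 log2 units, and those at 4900 µg/L had 7.93, 7.98, 7.84, 7.51 and 7.78. The mean at 4900 µg/L was thus 0.34 ± 0.15 (SE) above that of the control, a difference short of the threshold (adjusted p = 0.0842 in limma). The rule bounded this difference too, so its p-value describes the choice. At 12249 µg/L replicates A and B, with 7.86 and 7.62, lay within the range of the 4900 µg/L libraries, whereas replicate C had 6.47, below every library of the lower groups. The mean of that group, 7.32 ± 0.74 (SD, n = 3), therefore averages unlike libraries. It met the bound of 0.4 at 12249 µg/L, as replicates A and B each did, while replicate C alone lay below the bound. At 30623 µg/L replicates A, C and D had 6.27, 5.89 and 5.58, all below every library of the other groups, and the mean difference from the control was -1.56 ± 0.18 (SE).

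**Figure D2:**
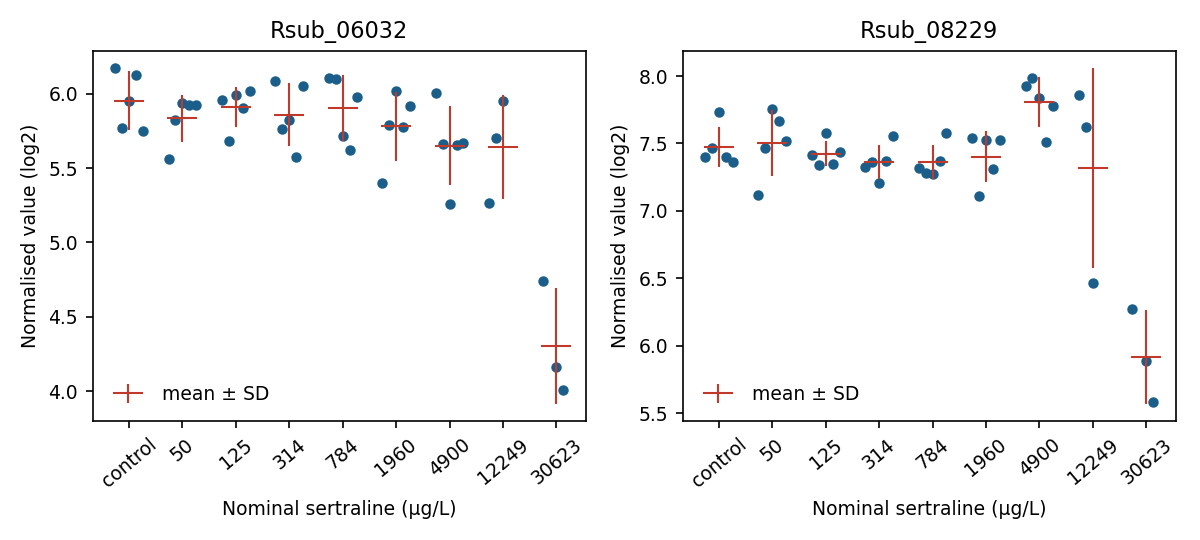
Normalised values (log2, vertical axis) of the 2 genes with the strongest mean falls in every library, by nominal sertraline concentration, with mean ± SD per group in red. The 3 libraries of Rsub_06032 at 30623 µg/L (4.01 to 4.74) lay below all its others, and replicate C of Rsub_08229 at 12249 µg/L (6.47) lay near the 30623 µg/L libraries (5.58 to 6.27).

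This pattern was not limited to Rsub_08229. Over the 63 genes the median difference from the control mean at 12249 µg/L was 0.06 in replicate A, -0.08 in replicate B and -0.49 in replicate C. Replicate C was the lowest of the 3 libraries in 45 of the 63 genes (71.4%), against 38.6% of the 1724 genes within the bound and 34.0% of all 7291 genes. In that library 53 members lay below the control mean, 40 at or below -0.4 and 4 at or below -1. In replicate A, 2 members reached -0.4 and in replicate B 8 did. Both A and B lay within 0.4 of the control mean in 47 members, and all 3 libraries did so in 12. The bound of 0.4 at 12249 µg/L, which the rule set on the group means, was thus passed downwards by many members in this library. Since the rule used these means, the differences between their libraries are part of what chose the genes.

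The libraries at 30623 µg/L were also unlike each other. Replicate A fell least, with a median over the members of -0.82 (quartiles -1.05 and -0.63), against -1.33 (quartiles -1.51 and -1.12) in replicate C and -1.44 (quartiles -1.62 and -1.21) in replicate D. Replicate A was the highest of the 3 in 49 of the 63 genes, and a fall of at least 1 was reached by 20 members in replicate A, 51 in C and 59 in D. All 3 libraries reached it in 12 members, exactly 2 of 3 in 43 and 1 of 3 in 8. The 3 libraries of a member spanned between 0.18 and 1.75 log2 units, with a median of 0.87.

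**Figure D3:**
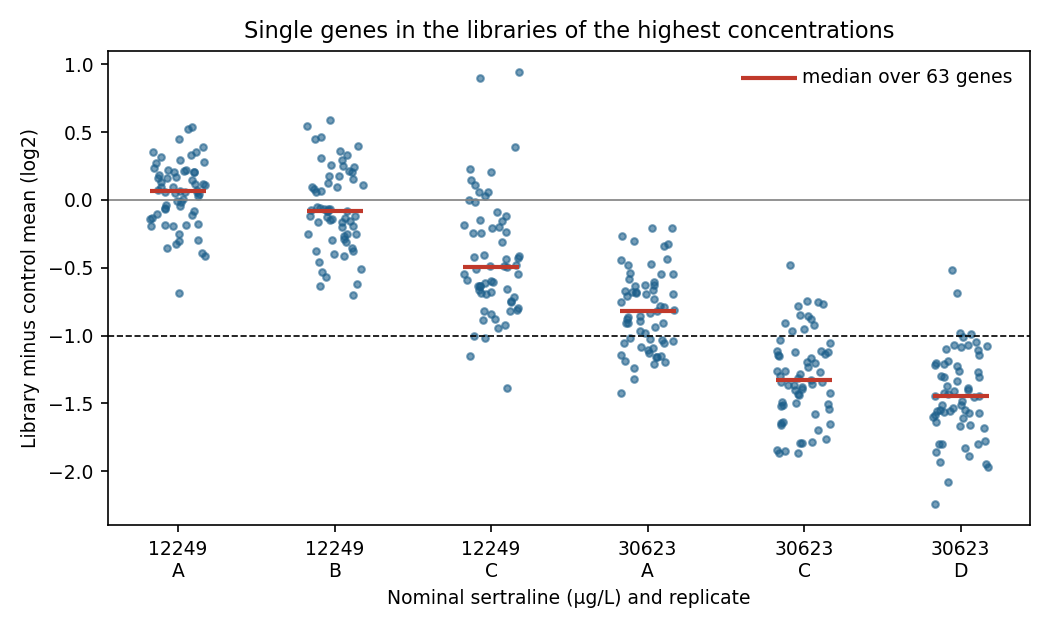
Each blue point is 1 of the 63 genes in 1 library at 12249 or 30623 µg/L, as its value minus the control mean (log2, vertical axis), with the median over genes in red and a dashed line at -1. Replicate C at 12249 µg/L (median -0.49) lies between the other 12249 µg/L libraries (0.06 and -0.08) and replicate A at 30623 µg/L (-0.82).

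For comparison, the same libraries were read over other genes that moved at 30623 µg/L. Over the 873 other genes at or below -1 at 30623 µg/L, the median was -1.34 in replicate A, -1.40 in C and -1.52 in D, and at 12249 µg/L it was -0.94 in A, -1.05 in B and -1.34 in C. Over the 95 genes that met the mirror image of the rule, with a mean at least 1 above the control at 30623 µg/L, the median was 0.71 in replicate A, 1.40 in C and 1.50 in D, and at 12249 µg/L -0.13 in A, 0.26 in B and 0.37 in C. Replicate A at 30623 µg/L was thus nearer to the control than C and D in the medians of both the members and these 95 genes. The median over all 7291 genes was -0.05 in replicate A at 30623 µg/L and -0.04 in replicate C at 12249 µg/L. These differences between sets of genes were not tested.

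Membership rested on single libraries. Without replicate A at 30623 µg/L, 117 genes met the rule, among them 58 of the 63. Without replicate C at 12249 µg/L 102 did, among them 57 of the 63, and without replicate A at 12249 µg/L 41 did, of which 40 were members. Without replicate D at 30623 µg/L 49 genes met the rule and without replicate C 65 did, among them 40 and 47 of the 63.

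In limma's test all 63 genes were lower at 30623 µg/L than in the control, with adjusted p-values between 3.32e-13 and 0.000108, where 28.1% of all genes were called lower. The rule used this contrast, so the count describes the choice. The p-values rest on a spread shared by all groups, whereas the members' median SD was largest at 30623 µg/L. The 3 libraries at 30623 µg/L lay below all 5 control libraries in 62 of the 63 genes (22.9% of all genes), below all 3 libraries at 12249 µg/L in 49 (10.6%) and below all 38 other libraries in 40 (2.69%). In the remaining 23 genes the library that most often lay below the highest 30623 µg/L library was replicate C at 12249 µg/L, in 13 genes, followed by replicate A at 4900 µg/L in 6. All 63 were lower at 30623 than at 12249 µg/L, with a median difference of -1.02 (range -1.65 to -0.65), where 15.7% of all genes were called lower. The rule used the means of both groups, so this count too was fixed by the choice. That count was 12 when only these 3 and 3 libraries entered the fit, and 55 to 63 when single libraries were left out of the full fit.

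At the concentrations between, bounded by the rule, no member was called at 784 µg/L (2.92% of all genes called) or 1960 µg/L (22.1%). At 4900 µg/L 1 member was higher than the control (14.9% of all genes called higher), and at 12249 µg/L 1 was lower (26.1% called lower). At 12249 µg/L 52 of the 63 means lay below the control (52.5% of all genes). The count was 34 at 4900 (51.6%), 41 at 1960 (50.1%) and 33 at 784 µg/L (48.3%). The rule used these means, so the counts describe the choice. By library at 12249 µg/L, 24 members lay below the control mean in replicate A, 39 in B and 53 in C. For 32 of the 63 genes the 12249 µg/L mean was the lowest of all group means below 30623 µg/L.

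**Figure D4:**
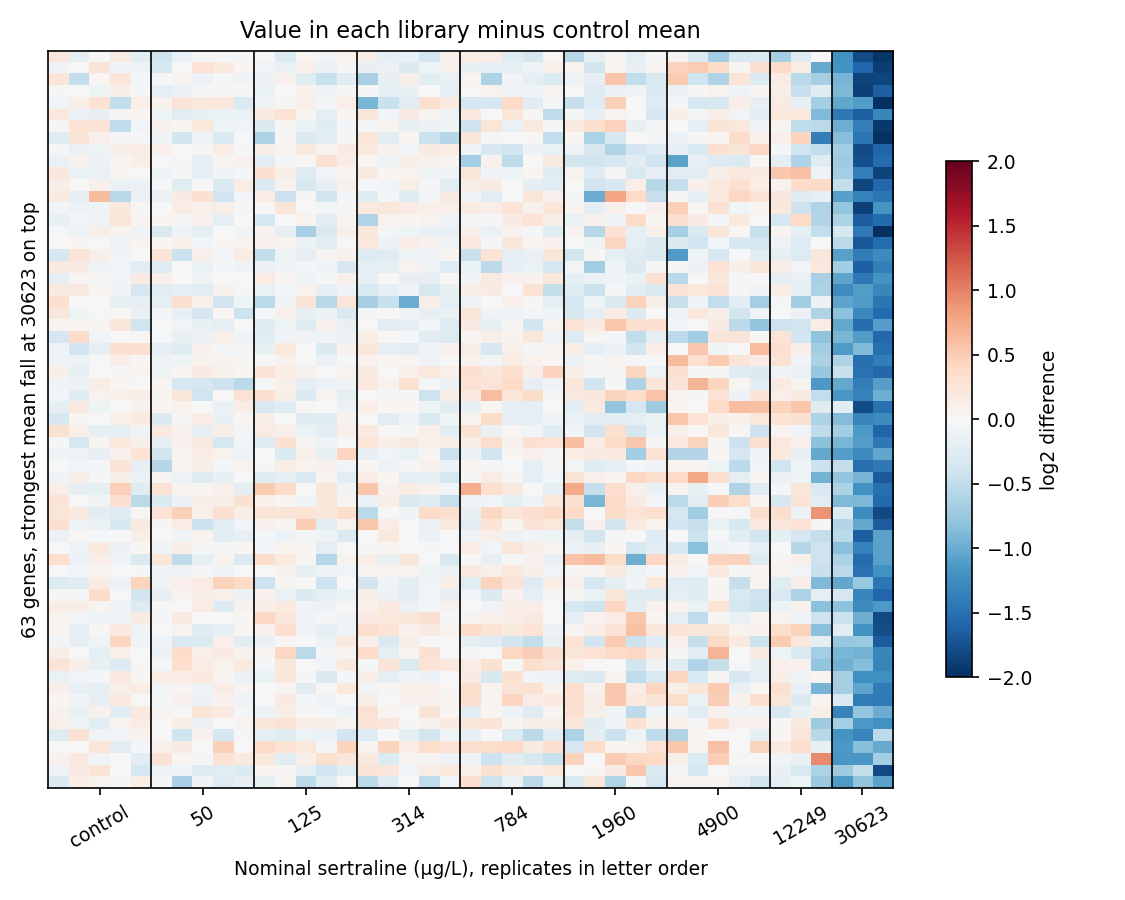
Each row is 1 of the 63 genes, ordered by its mean fall at 30623 µg/L, and each column 1 of 41 libraries grouped by nominal sertraline concentration; colour gives the value minus the control mean (log2), saturating at 2 in either direction. Blue is spread over all rows in the 3 libraries at 30623 µg/L and over many rows in the last of the 3 columns at 12249 µg/L, replicate C.

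The libraries at 50, 125 and 314 µg/L took no part in the choice of genes. The median difference from the control was -0.01 at 50, -0.03 at 125 and -0.02 at 314 µg/L. At each of the 3 concentrations 37 of the 63 means (58.7%) lay below the control, against 51.6%, 51.0% and 48.9% of all genes. The 3 counts share the same control libraries, which also entered the rule. The differences ran from -0.32 to 0.26 at 50, from -0.22 to 0.27 at 125 and from -0.44 to 0.26 at 314 µg/L, with a median SE of 0.16. None of the 63 passed the threshold in limma's test with Benjamini-Hochberg adjustment at any of the 3, where 0%, 0% and 0.727% of all genes were called. At an unadjusted p under 0.05 there were 0 members at 50, 0 at 125 and 1 at 314 µg/L, against 1.25%, 3.31% and 6.02% of all genes. The 1 member was the gene with the difference of -0.44 (limma adjusted p = 0.725), and it is the only member that would leave the set if the bound of 0.4 were applied to these 3 concentrations as well. These comparisons share the control libraries with the rule. A contrast of 314 with 125 µg/L, in which neither group was used by the rule, called 0 of the 63 and 0% of all genes, with 0 members and 2.37% of all genes at an unadjusted p under 0.05.

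A difference that misses the threshold does not show that levels were equal, but its interval limits the size. The lowest end of any member's 95% interval in limma's fit was -0.68 at 50, -0.62 at 125 and -0.83 at 314 µg/L, and the highest end was 0.63, 0.64 and 0.58. For each of the 63 genes these intervals, taken gene by gene, thus left out a change of 1 log2 unit at all 3 concentrations. They lay wholly within 0.4 of the control for 35 members at 50, 32 at 125 and 29 at 314 µg/L.

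The 63 genes were well expressed, as far as reads from 3′ ends, on a scale not known to be adjusted for transcript length, allow levels to be compared between genes. Their control means had a median of 6.36 log2 units (range 4.64 to 10.1), against 4.58 (range 1.85 to 11.8) over all genes. When all genes were split into terciles of the control mean, 57 of the 63 (90.5%) fell into the top tercile, 6 into the middle and 0 into the bottom, and 22 (34.9%) were among the 730 genes with the highest control means. The member with the highest level had 10.1 ± 0.043 (SD, n = 5) in the control, and its 3 libraries at 30623 µg/L averaged 9.04 ± 0.49 (SD, n = 3). The member with the lowest level went from a control value of 4.64 ± 0.30 (SD, n = 5) to 3.57 ± 0.35 (SD, n = 3) under 30623 µg/L.

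Level and direction at 30623 µg/L went together among the 1724 genes that had stayed within the bound. In the top tercile 57 of 480 genes (11.9%) were members and 2 met the mirror rule, in the middle tercile 6 of 605 (0.992%) and 26, and in the bottom tercile 0 of 639 and 67. The median difference at 30623 µg/L was -0.41 in the top tercile, 0.00 in the middle and 0.31 in the bottom one. In the top tercile 79.4% of the 480 genes lay below the control, so most well expressed genes within the bound lay on the same side as the members. The 66 genes that kept the bound up to 4900 µg/L and had a mean at least 1 below the control at 12249 µg/L were also well expressed, with a median control mean of 5.67 and 47 in the top tercile.

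**Figure D5:**
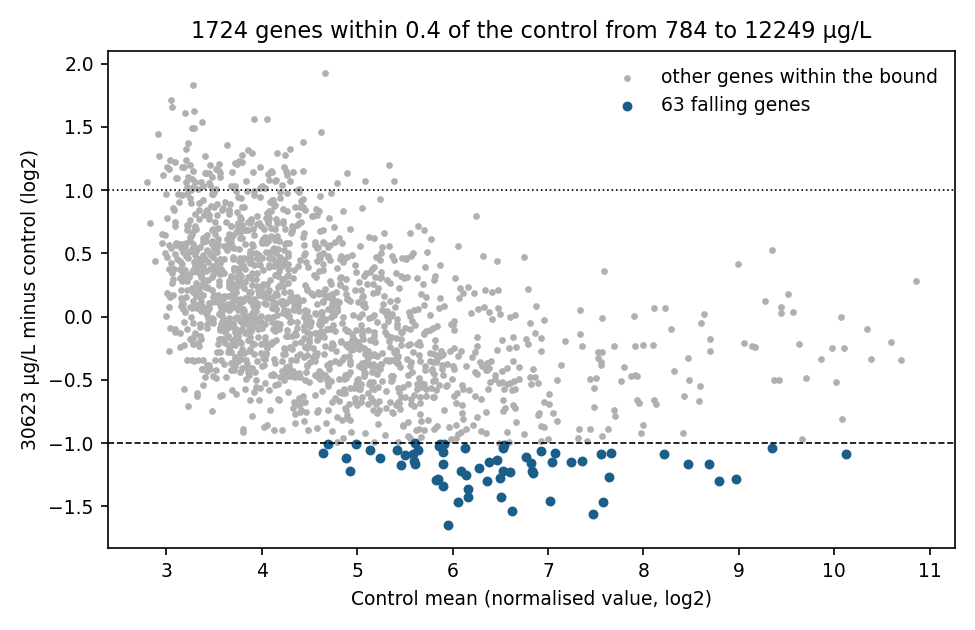
Each point is 1 of 1724 genes whose means stayed within 0.4 of the control from 784 to 12249 µg/L, by control mean (log2, horizontal axis) and 30623 µg/L minus control (log2, vertical axis), with lines at -1 and 1. The 63 falling genes in blue start at a control mean of 4.64, and 67 of the 95 genes above the upper line belong to the bottom tercile of all genes.

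The members' libraries agreed closely at low concentrations and less so at the top. Within groups, the members had a median SD of 0.17 in the control, 0.14 at 50, 0.15 at 125, 0.13 at 314 and 0.14 at 784 µg/L, and it was 0.21 at 1960, 0.24 at 4900, 0.35 at 12249 and 0.44 at 30623 µg/L. Over the 2431 genes of the top tercile the corresponding values were 0.18 in the control, 0.23 at 1960, 0.29 at 4900, 0.30 at 12249 and 0.39 at 30623 µg/L. The SDs at 12249 and 30623 µg/L come from 3 libraries and the others from 5, so they are not directly comparable. At 30623 µg/L the SD of a member ranged from 0.092 to 0.89.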

How the data were processed

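The table deposited by the authors holds normalised values, taken here to be log2, of 7291 genes in 41 of the 45 labelled libraries. The other 4 (replicates D and E at 12249 µg/L, B and E at 30623 µg/L) were not analysed here. Per the submitters' processing notes the tools included STAR 2.7.10a, featureCounts 2.0.6, fastp 0.23.2 and DESeq2. The sources used here do not give their settings, the transform, the gene filter, the handling of molecular identifiers or the genome build. A transform that shrinks weakly measured genes would understate their changes, and with another log base every fold would change. Depth per library is unknown, because the table holds no counts, so no interval from counts could be given. Library medians ran from 4.55 to 4.73, and no 2 libraries correlated above 0.975.

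Differences are group means as deposited, without filter or pseudocount. A linear model with group means was fitted to all libraries together (limma 3.58.1, R 4.3.3, empirical Bayes with an intensity trend, 32 residual degrees of freedom). All groups thus shared a spread for each gene. The members' median SD, however, was 0.17 in the control and 0.44 at 30623 µg/L. SEs and p-values may therefore be too small at 30623 µg/L and too large at low concentrations. Each two-sided p-value was adjusted over all 7291 genes (Benjamini-Hochberg), with a threshold of 0.05. The fit was tested on simulated data in which each gene had the same spread in all groups, so that test does not cover the unequal spread. Members, comparisons and alternatives were chosen with earlier results of these data known. The genes named are the 2 members with the lowest difference at 30623 µg/L whose libraries there all lay below all control libraries. Lists by product name could not be used without annotation. Figures used Python 3.11.15 and matplotlib 3.10.9.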

Additional observations from a re-analysis of the deposited data

Results flagged for a closer look

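In groups of 5 libraries, a library's gap to the nearest other was divided by the range of the group. The library was set apart when this ratio exceeded Dixon's 95% critical value, which chance does in about 1 in 20 groups. Of 21 groups of values examined (both named genes and the median over the 63 genes), 2 held such a library, where chance gives about 1.05. Control replicate C had 7.73 log2 units for Rsub_08229 against 7.37 to 7.46 in the others. Replicate A at 314 µg/L had a median over the 63 genes of 0.0877 log2 units above the control mean, against -0.026 to -0.0062 in the others. The groups at 12249 and 30623 µg/L, with 3 libraries each, were too small for this rule.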

How the results depend on the processing

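The number of genes that met the rule, 63, was 30 with a bound of 0.3, 113 with 0.5, 131 with a fall of at least 0.8, 24 with a fall of at least 1.2, and 99 with medians in place of means, 42 of them members. Leaving out single libraries gave 41 to 117. It was 64 with libraries centred (53 members) and 69 after quantile scaling (39 members), so scaling changed which genes met the rule more than how many. With members fixed, the count lower at 30623 than in the control was 63 in all 14 alternatives. The count lower at 30623 than at 12249 µg/L was 12 with only these groups in the fit and ran from 55 to 63 without single libraries. The rule used the groups of both comparisons, so the counts for them describe the choice and do not show that it is stable. The counts called at 50, 125 and 314 µg/L and for 314 against 125 µg/L were 0 in all 17 alternatives each, and the median at 314 µg/L stayed between -0.044 and -0.0049 without single libraries. With the replicate letter as a block these counts were 63, 63 and 0 for the rest. Letters were not taken to mark pairs, since in no pair of groups compared did all same-letter deviations from the group means correlate above 0.1. Each pair of groups shared only 2 to 5 letters, so this check could miss a pairing. The correlations lay between -0.048 and 0.013 for the control and 30623, -0.010 and 0.104 for 12249 and 30623, -0.080 and 0.168 for the control and 50, -0.140 and 0.114 for the control and 125, -0.068 and 0.055 for the control and 314, and -0.103 and 0.106 for 125 and 314 µg/L. With 3 libraries per group at the highest concentrations and unknown depth, the members cannot be delimited sharply.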
